A study of Homo sapiens with 12 samples.

Results

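The genes of 10 mitotic regulators were followed through SLMP53-2 treatment of HuH-7 cells: the kinases Aurora A and Aurora B (AURKA and AURKB), survivin (BIRC5), INCENP and borealin (CDCA8), the Aurora A activator TPX2, the Polo kinase PLK1, and CDC20, BUB1 and BUB1B of the mitotic checkpoint. They were found by name, as every gene probe that the scanner files name for one of them. The 10 were among 29123 gene names on the array. They gave 11 of the 41000 gene probes on the array, 1 for each gene apart from PLK1, which has 2, and the probe with the higher mean level stood for PLK1. All 11 were among the 33477 probes that passed the filter on dim probes, and all were well above background on all 12 arrays. No measured value had a part in the search by name, but the 10 genes were chosen with earlier results of these data known.

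HuH-7 is a line of hepatocellular carcinoma cells, and the labels give all 3 groups the same p53 mutant genotype. The cells received the solvent DMSO alone, 28 µM SLMP53-2 or 42 µM SLMP53-2, a small molecule that the study examined as a reactivator of mutant p53, and RNA was taken after 24 h. The doses are 2 and 3 times the IC50, the concentration by which growth inhibition is rated. The sample titles give the higher dose as 42 µM, which is used here, while the characteristics and descriptions of the same samples write 48 µM. Each group holds 4 arrays of 1 colour, labelled as biological replicates, and the 12 arrays lie on 5 slides. Of 12 hepatocyte markers, all were well above background on every array, with albumin (ALB) at the 99.9th percentile of all probes and HNF4A at the 43.5th. Of 10 markers of leukocytes, endothelial cells and fibroblasts, PTPRC was above background on 3 arrays and the others on 10 to 12, at the 26.5th to the 62.9th percentile. Levels are log2 intensities after background correction and quantile normalization, in which a difference of 1 is a doubling.

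One 28 µM array stood apart from the rest of its group in the mean of the 10 genes. This array, replicate 4, was the one closest to DMSO replicate 3, which shares its slide. Over all probes tested the median absolute difference between them was 0.12, the smallest of all 66 pairs of arrays. The next smallest, 0.15, also joined different groups, replicate 3 at 28 µM and replicate 3 at 42 µM. Pairs from different groups had a median of 0.23, beside 0.22 within a group. The largest difference, 0.36, lay between replicates 1 and 4 at 28 µM. Averaged over the 10 genes, replicate 4 deviated by 0.14 from the DMSO mean, whereas the other 28 µM arrays deviated by −0.98, −1.07 and −0.88. Of the 11 probes, INCENP was the exception on that array, with a difference of −0.54 from DMSO replicate 3, and the other 10 lay between −0.26 and 0.19 from it. Whether that culture was treated as labelled was not tested, so the changes, calls and tests at 28 µM are given with and without it. The median signal before normalization was also higher on the 28 µM arrays, at 198 to 235, than on the DMSO arrays, at 170 to 182, or at 42 µM, at 174 to 185, and its part in the results was not tested.

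In dividing cells these proteins share out the chromosomes. Aurora A, activated by TPX2, builds the spindle poles, and PLK1 drives entry into mitosis and its later steps. Aurora B works within the chromosomal passenger complex, where INCENP is the scaffold and survivin and borealin bring the kinase to the centromere, and it corrects wrong attachments of microtubules. At kinetochores that are not attached, BUB1 and BUBR1 (BUB1B) signal to hold back CDC20, the activator of the anaphase-promoting complex (APC/C), until every chromosome is ready. The genes are transcribed late in the cell cycle, so their RNA is abundant in cells that are in G2 or mitosis. In a bulk sample, fewer cells in those phases and less RNA in each cell cannot be told apart.

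Promoters of late cell cycle genes often hold the cell cycle genes homology region, TTTGAA or more rarely TTCGAA, which is bound by MuvB complexes that repress or activate them, together with CCAAT boxes, which are bound by NF-Y. RefSeq promoters of GRCh38.p14, from 250 bases before to 50 bases after the start of transcription, were at hand for 7 of the 10 genes, all except AURKA, BIRC5 and TPX2. TTTGAA was present on either strand in 5 of the 7, against 15.2% of 35116 promoters, and TTCGAA in BUB1, just after the start, against 1.45%. CCAAT was present in 6 of the 7, all except BUB1B, against 34.6%. The 2 AURKB promoters in the table held CCAAT and neither form of the homology region. The 5 promoters with TTTGAA are shown for the place of this motif; each stretch is the 120 bases before the start, 5′ to 3′ on the strand of the gene, and capitals mark TTTGAA and CCAAT or its reverse complement ATTGG.
INCENP (chr11:62123891-62124010, + strand): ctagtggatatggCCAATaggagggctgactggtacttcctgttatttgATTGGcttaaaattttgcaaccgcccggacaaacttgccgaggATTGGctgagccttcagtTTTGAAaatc
CDCA8 (chr1:37692396-37692515, + strand): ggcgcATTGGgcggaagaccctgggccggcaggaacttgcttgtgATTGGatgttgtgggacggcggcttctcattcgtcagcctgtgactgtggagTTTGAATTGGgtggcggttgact
PLK1 (chr16:23678769-23678888, + strand): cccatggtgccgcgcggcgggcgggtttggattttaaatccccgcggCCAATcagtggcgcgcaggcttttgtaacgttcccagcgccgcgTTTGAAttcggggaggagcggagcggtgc
CDC20 (chr1:43358861-43358980, + strand): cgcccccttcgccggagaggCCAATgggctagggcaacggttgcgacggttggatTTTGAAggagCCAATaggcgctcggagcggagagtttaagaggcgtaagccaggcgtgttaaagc
BUB1B (chr15:40160949-40161068, + strand): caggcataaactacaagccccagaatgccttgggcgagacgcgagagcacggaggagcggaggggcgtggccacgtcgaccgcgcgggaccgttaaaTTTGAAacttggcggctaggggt
The motif began 10 bases before the start in INCENP, 23 in CDCA8 and BUB1B, 29 in PLK1 and 65 in CDC20, which held a second one on the other strand 178 bases before the start. In CDCA8 it overlapped an ATTGG by its last base. A match of letters is a description of the sequence, and binding at these promoters was not measured on the arrays.

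Each probe is a strand of 60 bases, and 3 of the 11 cross an intron, so that they match spliced RNA and not the gene's own DNA in one piece. They are shown because they bear on which RNA was measured. Positions are those of hg19 in the scanner files.
AURKB (chr17:8110655-8110917, - strand): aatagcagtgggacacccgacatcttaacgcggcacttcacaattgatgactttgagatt
PLK1, dimmer probe (chr16:23700970-23701212, + strand): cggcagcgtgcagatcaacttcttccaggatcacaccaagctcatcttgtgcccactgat
BUB1 (chr2:111395699-111397340, - strand): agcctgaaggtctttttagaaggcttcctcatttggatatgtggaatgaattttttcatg
They lie over 263, 243 and 1642 bases of the genome. The other 8 probes match 60 bases without a gap.

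At 42 µM SLMP53-2 all 10 genes were measured at lower mean levels than in DMSO. The median log2 change was −1.14, beside −0.01 over all probes tested. The limits of the limma fit, a Benjamini-Hochberg adjusted p below 0.05 over all probes together with a log2 change of at least 0.6, were passed by 5 of the 10 genes: INCENP, PLK1, CDCA8, BIRC5 and BUB1 fell. Among all probes tested 1.23% fell by the same limits and 1.41% rose. At the same size of change and an unadjusted p below 0.05, all 10 genes passed, beside 2.1% of probes. For 8 of the 10 genes every 42 µM array lay below every DMSO array, all except AURKB and BUB1B, a pattern that 6.48% of probes showed. The calls over the whole array depended on single arrays. With DMSO replicate 2 or 42 µM replicate 2 left out, 0 of the 33477 probes were called in either direction at 42 µM. Without DMSO replicate 2 none of the 5 genes was called, with changes of −1.37 for INCENP, −1.41 for PLK1, −1.36 for CDCA8, −1.21 for BIRC5 and −1.17 for BUB1, and without 42 µM replicate 2 none was called, with −1.30, −1.28, −1.25, −1.10 and −1.12. INCENP was also not called without DMSO replicate 4, at −1.42, where 160 probes fell in place of 413. Leaving out 28 µM replicate 4, which enters the shared spread, gave 8 called genes, beside 1.64% of probes, all except AURKB and BUB1B.

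**Figure D1:**
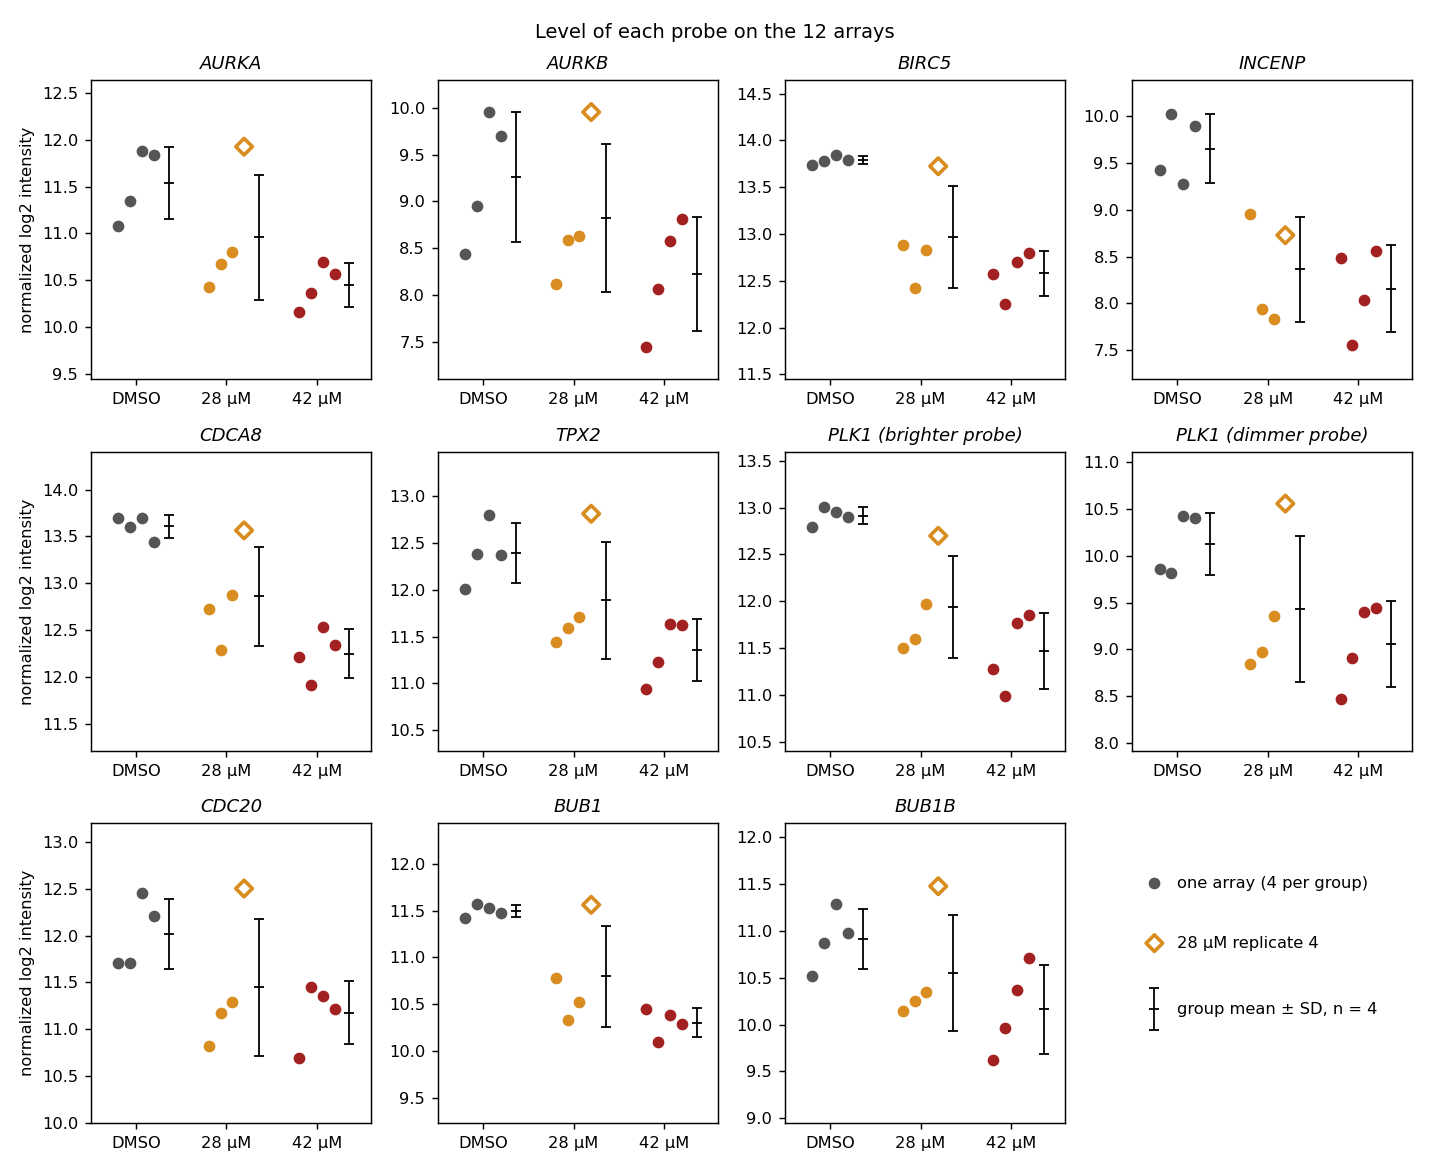
Normalized log2 intensity of each of the 11 probes on the 12 arrays, by group (DMSO, 28 µM and 42 µM SLMP53-2), each point 1 array and each bar the group mean ± SD (n = 4). The open diamond is 28 µM replicate 4, which lies within or close to the DMSO range for every probe apart from INCENP, where it lies at 8.73 against 9.27 to 10.03 on DMSO.

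INCENP, the scaffold of the passenger complex, had the lowest 42 µM level relative to DMSO of the 10 genes. Its DMSO arrays read 9.42, 10.03, 9.27 and 9.90, its 28 µM arrays 8.96, 7.94, 7.83 and 8.73, and its 42 µM arrays 8.48, 7.55, 8.03 and 8.56. No treated array of either dose reached the DMSO range. At 42 µM the log2 change was −1.50 (SE 0.29, adjusted p = 0.0174 from limma), which leaves 35.4% of the DMSO level (95% interval 23.1% to 54.4%). At 28 µM it was −1.29 (SE 0.29, adjusted p = 0.175), and −1.41 without replicate 4 (adjusted p = 0.0326).

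CDCA8, which encodes borealin, read 13.70, 13.60, 13.70 and 13.44 on DMSO, 12.72, 12.29, 12.87 and 13.56 at 28 µM, and 12.21, 11.92, 12.53 and 12.34 at 42 µM. All arrays at 42 µM lay below all of DMSO, and at 28 µM replicate 4 alone reached the DMSO range. The log2 change was −1.36 at 42 µM (SE 0.22, adjusted p = 0.0127), or 39.0% of the DMSO level (28.1% to 54.1%), and −0.75 at 28 µM (SE 0.22, adjusted p = 0.233), or −0.98 without replicate 4 (adjusted p = 0.0110).

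BIRC5 encodes survivin, the passenger subunit that also belongs to the family of inhibitors of apoptosis. Its probe is printed in 10 spots on each array, of which 9 were used on 28 µM replicate 4 and on 42 µM replicate 4. The means over spots were 13.73, 13.78, 13.84 and 13.79 on DMSO, 12.88, 12.42, 12.83 and 13.72 at 28 µM, and 12.57, 12.25, 12.70 and 12.80 at 42 µM. The DMSO arrays lay close together, with an SD of 0.05, and every treated array lay below the lowest of them, though 28 µM replicate 4 only by a small margin. Within an array the SD over the spots was 0.15 to 0.38. The log2 change was −1.21 at 42 µM (SE 0.22, adjusted p = 0.0160), or 43.3% of the DMSO level (31.3% to 60.0%). At 28 µM it was −0.82 (SE 0.22, adjusted p = 0.206), and −1.08 without replicate 4 (adjusted p = 0.00427).

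AURKB, the kinase of the same complex, varied more between the DMSO arrays than the other members did, with an SD of 0.70. It read 8.43, 8.95, 9.96 and 9.70 on DMSO, 8.12, 8.59, 8.63 and 9.95 at 28 µM, and 7.44, 8.07, 8.58 and 8.81 at 42 µM. The lowest DMSO array, replicate 1, lay within the range of the 42 µM arrays. The log2 change of −1.04 at 42 µM (SE 0.42, 95% interval −1.94 to −0.14, adjusted p = 0.237) did not pass the limits, nor did −0.44 at 28 µM (SE 0.42, adjusted p = 0.725) or −0.82 without replicate 4 (adjusted p = 0.311).

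AURKA and its activator TPX2 had nearly the same size of change at 42 µM. AURKA read 11.08, 11.35, 11.88 and 11.84 on DMSO, 10.43, 10.68, 10.80 and 11.93 at 28 µM, and 10.16, 10.37, 10.70 and 10.57 at 42 µM. TPX2 read 12.01, 12.39, 12.80 and 12.37 on DMSO, 11.44, 11.59, 11.71 and 12.81 at 28 µM, and 10.94, 11.23, 11.63 and 11.62 at 42 µM. For both genes all 42 µM arrays lay below all DMSO arrays, and at 28 µM all arrays but replicate 4 did. At 42 µM the log2 change was −1.09 for AURKA (SE 0.28, adjusted p = 0.0570) and −1.04 for TPX2 (SE 0.28, adjusted p = 0.0616), neither past the limits. Both passed them at 42 µM without 28 µM replicate 4, with adjusted p = 0.00558 and 0.00705, and AURKA also without 28 µM replicate 1, at −1.09 with adjusted p = 0.0481. At 28 µM the changes were −0.58 (adjusted p = 0.476) and −0.50 (adjusted p = 0.529). Without replicate 4 AURKA was called at 28 µM, at −0.90 (adjusted p = 0.0383), and TPX2 had −0.81 (adjusted p = 0.0594).

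PLK1 was measured by 2 probes. The brighter one (chr16:23701628-23701687 of hg19) read 12.79, 13.01, 12.95 and 12.90 on DMSO, 11.50, 11.59, 11.97 and 12.70 at 28 µM, and 11.27, 10.99, 11.76 and 11.85 at 42 µM. No treated array reached the DMSO range. Its log2 change was −1.44 at 42 µM (SE 0.25, adjusted p = 0.0142), or 36.8% of the DMSO level (25.5% to 53.1%), and −0.97 at 28 µM (SE 0.25, adjusted p = 0.194), or −1.22 without replicate 4 (adjusted p = 0.00804). The dimmer, intron-crossing probe read 9.86, 9.81, 10.42 and 10.40 on DMSO, 8.84, 8.97, 9.36 and 10.56 at 28 µM, and 8.47, 8.91, 9.40 and 9.44 at 42 µM. Its 42 µM arrays also lay below all of DMSO, while its 28 µM replicate 4 lay above them. Its log2 change of −1.07 at 42 µM (SE 0.34, adjusted p = 0.113) did not pass, nor did −0.69 at 28 µM (SE 0.34, adjusted p = 0.474), and without 28 µM replicate 4 it passed at 28 µM with −1.07 (adjusted p = 0.0435) and at 42 µM with −1.07 (adjusted p = 0.0177). The change of the brighter probe minus that of the dimmer one was −0.37 at 42 µM (p = 0.143) and −0.28 at 28 µM (p = 0.286) by exact two-sided permutation tests over 70 splits of the arrays, and −0.16 at 28 µM without replicate 4 (p = 0.486, exact test over 35 splits), so a difference between the probes was not shown.

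BUB1, the checkpoint kinase of the kinetochore, read 11.42, 11.57, 11.52 and 11.48 on DMSO, 10.78, 10.33, 10.52 and 11.56 at 28 µM, and 10.45, 10.10, 10.38 and 10.28 at 42 µM. Both DMSO and 42 µM were tight groups with a wide gap between them, with SDs of 0.06 and 0.15. The log2 change was −1.19 at 42 µM (SE 0.21, adjusted p = 0.0153), or 43.8% of the DMSO level (32.0% to 59.8%), and −0.70 at 28 µM (SE 0.21, adjusted p = 0.240), or −0.95 without replicate 4 (adjusted p = 0.00399).

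BUB1B, which encodes BUBR1, and its target CDC20 had the smallest changes of the 10 genes at 42 µM. BUB1B read 10.52, 10.88, 11.29 and 10.98 on DMSO, 10.14, 10.25, 10.35 and 11.48 at 28 µM, and 9.62, 9.96, 10.37 and 10.71 at 42 µM. CDC20 read 11.71, 11.71, 12.46 and 12.21 on DMSO, 10.82, 11.17, 11.29 and 12.50 at 28 µM, and 10.70, 11.45, 11.35 and 11.21 at 42 µM. The CDC20 arrays at 42 µM lay below all of DMSO, while the highest BUB1B array at 42 µM lay above the lowest of DMSO. Neither passed at 42 µM, where the log2 change was −0.84 for CDC20 (SE 0.31, adjusted p = 0.188) and −0.75 for BUB1B (SE 0.30, adjusted p = 0.224). At 28 µM the changes were −0.57 (adjusted p = 0.524) and −0.36 (adjusted p = 0.678), and without replicate 4 they were −0.93 (adjusted p = 0.0519) and −0.67 (adjusted p = 0.186). CDC20 was called at 42 µM, at −0.84, when 28 µM replicate 4 was left out (adjusted p = 0.0359).

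Whether a gene changed by another amount than the rest was tested with its level minus the mean of the other 9 on the same array, in exact two-sided permutation tests of 4 arrays against 4. Such an exact test cannot go below p = 0.0286, and 20 were run, 10 at each dose. PLK1 at 42 µM, which changed by 0.33 more than the others downwards, and BUB1B at 28 µM, which changed by 0.37 less, reached that smallest exact p, with a Benjamini-Hochberg adjusted p of 0.286. For the other 18 the exact p was 0.0571 or higher. Without 28 µM replicate 4 the 10 exact tests at 28 µM, over 35 splits, gave no p below 0.0571, that of BUB1B, which then changed by 0.34 less than the others (adjusted p = 0.571). An adjusted p below 0.05 would need many of the tests to reach the smallest exact p at once. These tests therefore cannot decide whether the 10 genes changed unequally. Genes called at 42 µM were not compared as a group with those that were not.

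At 28 µM the 10 mean levels were again all lower than in DMSO, by a log2 change of −0.36 in BUB1B to −1.29 in INCENP, with a median of −0.64 beside −0.01 over all probes. None of the genes was called by limma with all arrays, and neither was any other probe (0%). At that size of change and an unadjusted p below 0.05, 5 genes passed, beside 1.02% of probes, and they were the same 5 that were called at 42 µM. In 3 genes, BIRC5, INCENP and PLK1, no 28 µM array overlapped with DMSO, which 2.68% of probes showed. Without replicate 4 the median was −0.94 and 6 genes were called, AURKA in addition to those 5, beside 0.839% of probes. Replicate 4 was singled out partly by its values in these same 10 genes, so their larger changes without it are a description. The remaining 3 arrays then lay below all DMSO arrays in every one of the 10 genes except AURKB, a pattern of 7.44% of probes. Both doses are compared with the same DMSO arrays, so their changes are not independent of each other. The study itself reported genes past the same limits at 28 µM, unlike the fit with all arrays here. Its quantitative PCR at that dose found BIRC5 significantly lower, and AURKA lower but not significantly so. Why the counts of called genes differ was not tested.

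**Figure D2:**
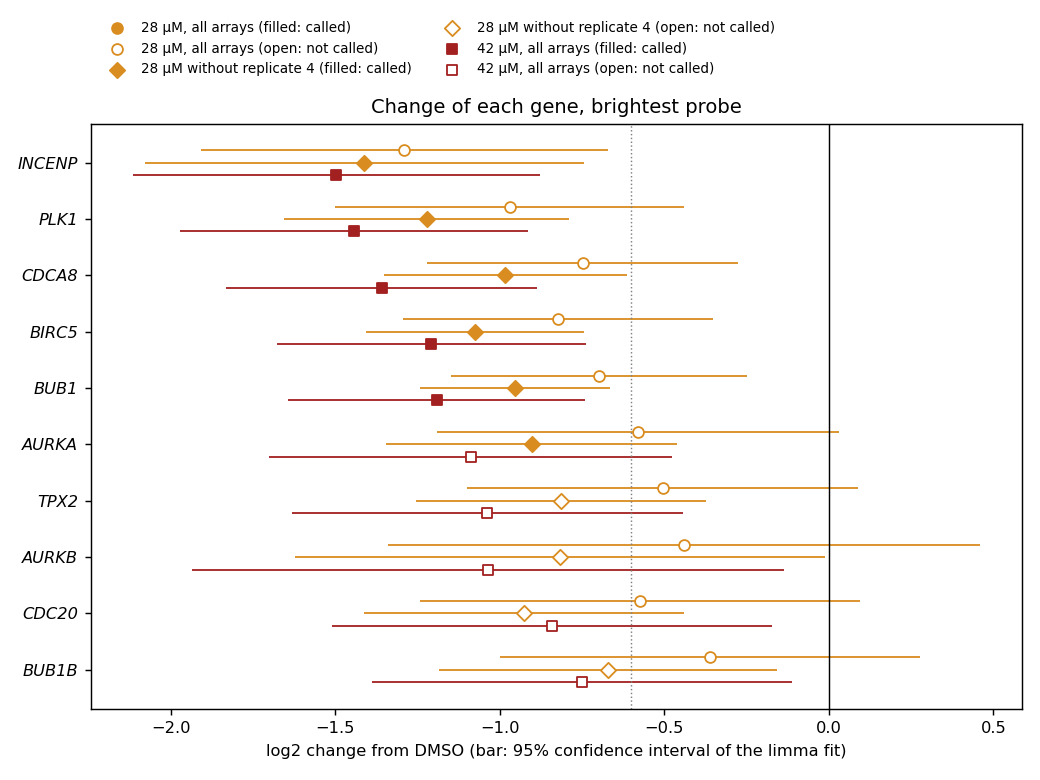
Log2 fold change from DMSO of each gene (brightest probe for PLK1) at 28 µM with all arrays, at 28 µM without replicate 4 and at 42 µM, with the 95% confidence interval of the limma fit as a line; filled symbols passed both limits and the dotted line is the limit of −0.6. All 30 estimates lie below 0, and the 28 µM estimate lies farther from 0 without replicate 4 for each of the 10 genes.

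The doses were also compared directly. At 42 µM the level was lower than at 28 µM in all 10 genes, with a median of −0.48, but none was called, as no probe was (0%). In no gene did all 42 µM arrays lie below all 28 µM arrays, which 0.848% of probes showed, and CDCA8 alone had both an unadjusted p below 0.05 and a log2 change past the limit, beside 0.167% of probes. Its difference was −0.61 (SE 0.22, 95% interval −1.08 to −0.14, adjusted p = 0.9995 from limma). For INCENP the difference was −0.21 (interval −0.82 to 0.41) and for PLK1 −0.47 (SE 0.25). Without 28 µM replicate 4 the median was −0.20 and 9 of the genes were lower at 42 µM, with CDC20 at 0.08 in the other direction. CDCA8 then had −0.38 (interval −0.75 to −0.01), INCENP −0.09 (interval −0.75 to 0.58) and PLK1 −0.22 (interval −0.65 to 0.21). A difference between the doses was therefore not detectable with these arrays, and the intervals do not show that the doses acted alike.

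The slide could be held fixed in part, since 4 of the 5 slides carry DMSO together with a treated array. On slide 2, which holds all 3 groups, every gene was lower than in DMSO at both doses, with a median difference of −0.94 at 28 µM and −1.42 at 42 µM. On slide 1 the 28 µM array was lower than DMSO in 9 of 10 genes, with a median of −0.62 and AURKB 0.19 higher. On slides 4 and 5 the 42 µM array was lower in all 10, with medians of −1.58 and −0.91. Slide 4 also holds 28 µM replicate 4, which was lower in 5 of 10 genes with a median difference of 0.00. Slide 3 holds no DMSO array, and there the 42 µM array was lower than the 28 µM array in 2 of 10 genes, with a median of 0.14. In a fit with the slide as a block the changes at 42 µM were of like size, with a median of −1.18, but none of the 10 genes passed, the smallest adjusted p being 0.0561, for INCENP at −1.60, and of all 33477 probes 1 was called lower and 0 higher. PLK1 had −1.46, CDCA8 −1.28, BIRC5 −1.19 and BUB1 −1.17 in that fit.

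**Figure D3:**
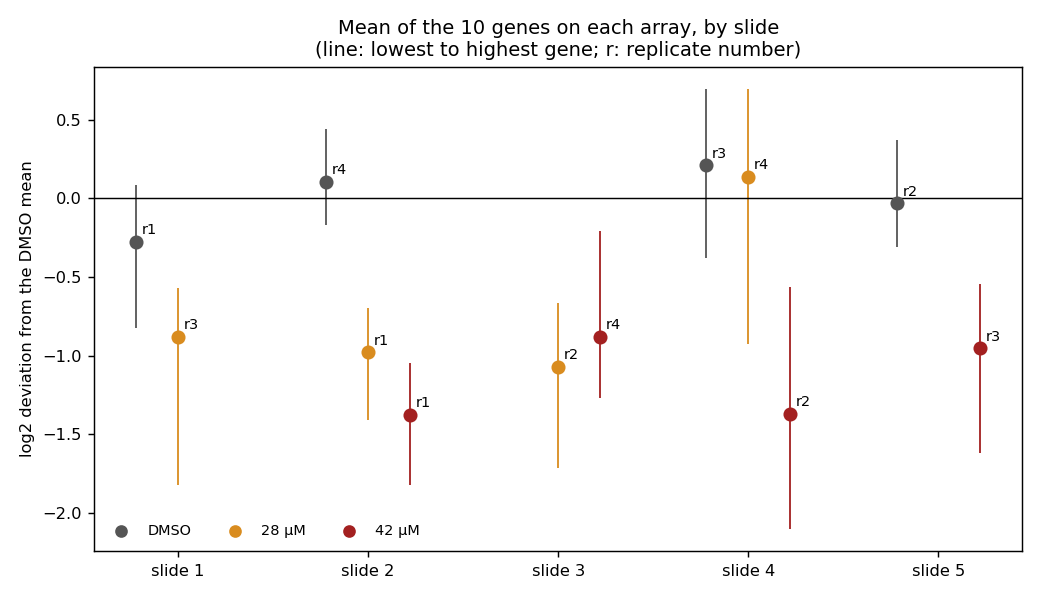
Mean over the 10 genes of the log2 deviation from the DMSO mean on each of the 12 arrays, arranged by slide, with a line from the lowest to the highest gene. The 28 µM array on slide 4 (r4) lies at 0.14, beside DMSO replicate 3 at 0.21 on the same slide, while the other 7 treated arrays lie between −1.37 and −0.88.

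Genes that work with the 10 were read from lists of the pathway, in the same fit at 42 µM (at 28 µM no gene of any list was called with all arrays). Genes counted as fallen or risen passed both limits. A gene that was not counted may still have had a lower mean, and may have changed more than a counted gene. The midzone and recruitment list, whose products place the passenger complex and build the central spindle, had 6 of 9 genes that fell, with a median of −0.92. All 9 changes lay between −1.28 and −0.69. Both parts of centralspindlin fell, KIF23 with −1.28 and RACGAP1 with −1.22 on the log2 scale (adjusted p = 0.0160 and 0.0181). Of the mitotic entry genes 5 of 11 fell, with a median of −0.87, among them GTSE1 with −1.28 (adjusted p = 0.0132) and CDK1, the kinase that starts mitosis, with −1.23 (adjusted p = 0.0155). Of the Aurora and Polo cofactors 3 of 10 fell, with a median of −0.35, among them HMMR, a spindle protein that binds TPX2, with −0.95 (adjusted p = 0.0321) and CEP55, which acts in the final cut between daughter cells, with −0.91 (adjusted p = 0.0275).

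Of 12 spindle checkpoint partners 3 fell, with a median of −0.54: ZWINT with −1.13 (adjusted p = 0.0292), KNL1, the kinetochore scaffold on which BUB1 and BUB1B assemble (CASC5 in the scanner files), with −1.06 (adjusted p = 0.0160), and SPDL1 with −0.66 (adjusted p = 0.0428). The changes of all 12 lay between −1.13 and −0.18, and some partners that were not called changed more than SPDL1. Of 12 core subunits of the APC/C none fell and CDC16 rose by 0.66 (adjusted p = 0.0242), with a median of −0.19 and no core subunit lower than −0.50. Of 9 regulators and substrates of the APC/C 5 fell, with a median of −0.73, among them its inhibitor FBXO5 with −1.38 (adjusted p = 0.0132) and cyclin A2 (CCNA2), which it degrades, with −1.29 (adjusted p = 0.0378). These shares stand beside 1.23% of all probes fallen and 1.41% risen, and whether the lists differ from each other was not tested.

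The counts of fallen genes in the lists changed with the arrays and with some settings, as the counts over all probes did. Leaving out DMSO replicate 2 or 42 µM replicate 2, or blocking on the slide, left no call in any list, beside 0, 0 and 1 probes called over the whole array. The rise of CDC16 was thus not called in these fits either. Without any one of DMSO replicates 1, 3 and 4 or 42 µM replicate 1 there were 1 checkpoint partner, 2 APC/C regulators, 0 or 1 cofactors, 4 entry genes and 2 or 3 midzone genes, while 128, 205, 160 and 226 probes fell in these fits in place of 413. Without 28 µM replicate 3 or 42 µM replicate 3 there were 3 APC/C regulators (311 and 264 probes fell), and without 42 µM replicate 3 or 4 there was 1 cofactor (264 and 378 probes). Without 28 µM replicate 4 the numbers at 42 µM were 5, 7, 4, 6 and 9 in the same order, and at 28 µM 1, 3, 2, 3 and 8, with 0 core subunits fallen at either dose, beside 1.64% of probes fallen at 42 µM and 0.839% at 28 µM. Agilent's processed signal scaled to the 75th percentile gave 3 APC/C regulators and 0 cofactors (338 probes fell). A fit of only the 42 µM and DMSO arrays gave 6 checkpoint partners, 7 APC/C regulators, 4 cofactors, 6 entry genes and 9 midzone genes (534 probes fell), and array weights gave the same 5 counts (560 probes).

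Paralogues of the kinases and of survivin, whose main roles mostly lie outside mitosis, were measured as well, and none of the 10 was called at 42 µM, where their median was 0.23. The third Aurora kinase, AURKC, had 0.25. Of the other Polo kinases PLK2 had −0.49, PLK3 0.37 and PLK4, which controls centriole duplication, −0.64 (adjusted p = 0.0918). Of the other inhibitors of apoptosis, BIRC2 had 0.33, BIRC3 −0.31, XIAP 0.24, BIRC6 0.21, BIRC7 0.15 and NAIP 0.69 (adjusted p = 0.115). AURKC, BIRC6 and BIRC7 were dim, with mean DMSO levels of 6.81, 7.08 and 7.11, beside 9.26 for AURKB, the dimmest of the 10 genes. The part of these low levels in the size of the changes was not tested. PLK4 was called lower with the slide as a random block, at −0.68, and with array weights, at −0.73, and NAIP was called higher without 42 µM replicate 4, at 0.88, and with the replicate number as a block, at 0.69 (adjusted p = 0.0191 from limma).

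**Figure D4:**
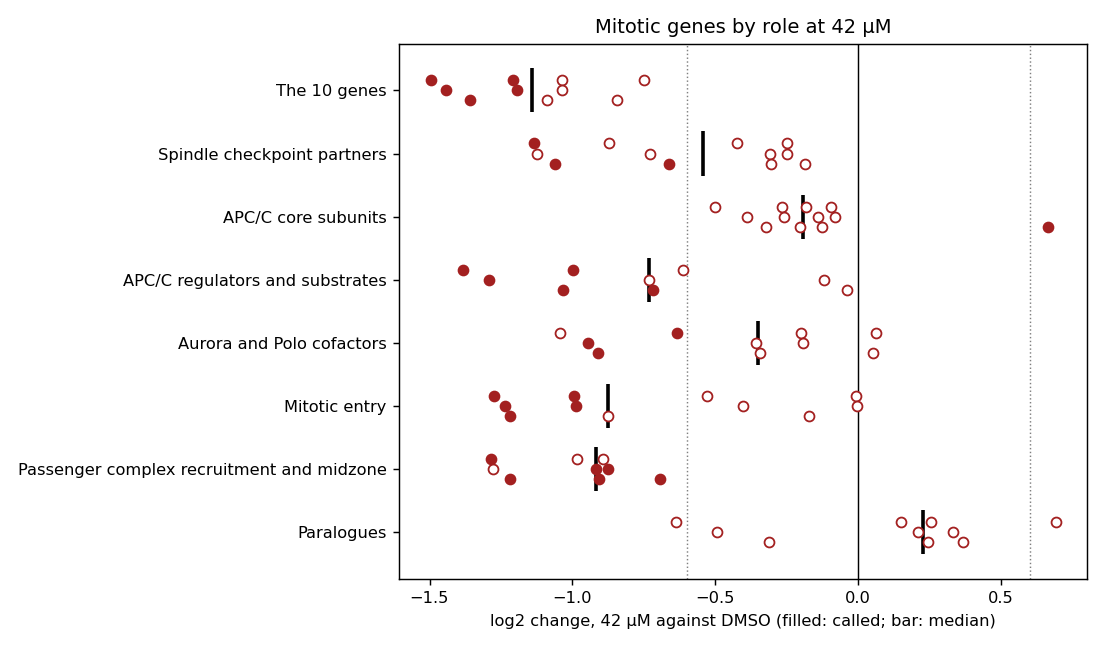
Log2 fold change at 42 µM against DMSO for the 10 genes and for the measured genes of 7 lists (brightest probe of each gene), with filled points for genes past both limits, a bar at the median of each list and dotted lines at the limits of ±0.6. The medians run from −1.14 in the 10 genes to 0.23 in the paralogues, and the APC/C core subunits lie between −0.50 and 0.66.

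The genes whose course over the 12 arrays was most like the mean of the 10 were found by the root mean square difference between log2 deviations from each gene's DMSO mean. The nearest 5 outside the list were CA2 (a carbonic anhydrase, distance 0.09), NUSAP1 (a spindle-associated protein, 0.09), ARHGAP11A (0.11), NDC80 (the kinetochore protein that binds microtubules, 0.12) and PSRC1 (0.13), against a median of 0.86 over all probes tested. They were chosen for this likeness, so their changes are a description: −1.11, −1.08, −1.10, −1.20 and −1.25 at 42 µM, and −0.64, −0.59, −0.58, −0.65 and −0.65 at 28 µM with all arrays, or −0.92, −0.88, −0.88, −0.91 and −0.90 without replicate 4. Within the list BIRC5 (0.16), AURKA (0.16), TPX2 (0.17) and BUB1 (0.19) lay closest to the mean of the 10, and INCENP lay farthest from it (0.58).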

How the data were processed

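RNA of 12 HuH-7 cultures was hybridised to Agilent 4x44K arrays of 1 colour. For each array the authors deposited the output of Agilent Feature Extraction, version 10.7.3.1 per the labels, in which the mean intensity of a spot and the median intensity around it are not yet normalized. A table of log2 values deposited beside it had been background-corrected by the Edwards method and quantile normalized by the authors, and served here as an alternative. From the scanner intensities, spots flagged as outliers and control spots were dropped, limma 3.58.1 in R 4.3.3 did the Edwards correction and the quantile normalization, and the spots of a probe were averaged on the log2 scale. The filter, a reading of the majority that the methods name, removed 7523 probes that in every condition had 3 or 4 arrays not well above background. The number of arrays limits the precision.

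The 3 groups were fitted together with lmFit and eBayes of limma, with one shared estimate of the spread for each probe, with two-sided tests and Benjamini-Hochberg adjustment over 33477 probes. The log2 limit of 0.6 is that of the study's results, and the limit of 1 that its methods give was an alternative. Alternatives were other background corrections, scalings and filters, the slide or the replicate number in the model, array weights, an intensity trend, and the omission of single arrays without normalizing again. The labels do not say whether a replicate number marks a shared culture or day. The tests at 28 µM of one gene against the other 9 and of the PLK1 probes, and the changes of the nearest genes, were also computed without 28 µM replicate 4, an alternative chosen after seeing the data. The fit was first tested on simulated data with independent noise. Those data had no slide effect and no deviating array, so that test does not bear on either.

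The 10 genes and the lists of related genes were chosen with earlier results of these data known. Named are the 10 genes, of each list the 2 called genes of largest change at 42 µM or, where none is called, the 1 of largest change, all paralogues, and the 5 genes nearest to the mean of the 10; SPDL1 was named after its values were seen. Plots were made with matplotlib 3.10.9 in Python 3.11.15. Promoter sequences come from RefSeq.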

Additional observations from a re-analysis of the deposited data

Results flagged for a closer look

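BUB1B on 28 µM replicate 4 read 11.48 on the log2 scale, against 10.14 to 10.35 on the other 3 arrays of that group. The gap to the nearest array took up 0.848 of the range of the group, above the limit of Dixon's test for 4 values. It was the only one of 33 groups of 4 values (11 probes in 3 groups) to pass, where chance alone would give about 1.65. The 33 groups come from the same arrays and are not independent. Replicate 4 was the highest 28 µM array for every probe except that of INCENP.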

How the results depend on the processing

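All 10 genes had a negative log2 fold change at both doses in every one of the 27 alternatives. Many alternatives could not move the fold change, such as the other filters, other log2 limits and the replicate number as a block. Leaving out an array of the other dose could not move it either. The medians were compared in 24 of the alternatives and moved by less than the spread between replicates in each. Some of the 24, such as the other filters and the replicate number as a block, left the medians as they were. Leaving out 1 array at a time gave medians of −0.94 to −0.51 at 28 µM, −1.23 to −1.08 at 42 µM and −0.60 to −0.20 between the doses. The number of the 10 genes called then ran from 0 to 6 at 28 µM and from 0 to 8 at 42 µM: leaving out DMSO replicate 2 or 42 µM replicate 2 gave 0 at both doses, as it did for all 33477 probes, and 6 and 8 came without 28 µM replicate 4, beside 281 and 549 probes lower. A block for the slide gave 0 called at 42 µM in place of 5, beside 1 probe lower in place of 413, and with the other 14 alternatives that kept all arrays between 5 and 9. The other scalings moved the median of all probes by less than 0.1. The difference between the doses for CDC20 ran from −0.48 without 28 µM replicate 1 to 0.083, a change of direction, without 28 µM replicate 4. The replicate number as a block gave 9 called genes at 42 µM, all except CDC20, beside 590 probes lower, and 0 at 28 µM. The lists then had 6 checkpoint partners, 7 APC/C regulators, 4 cofactors, 6 entry genes and 9 midzone genes called lower at 42 µM. Same-numbered arrays correlated between −0.46 and 0.62 in their deviations from the group means, and 5 of 12 arrays correlated best with their own number, and since the labels name no shared batch and not every pair correlated above 0.1, the arrays were treated as unpaired; whether the numbers mark shared cultures or days is not known. The cause of these changes was not tested. Leaving out an array or adding a block also leaves fewer degrees of freedom, and the part of this was not tested either.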
